A study of Mus musculus with 4 samples.

Results

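Activity-dependent immediate early genes were described here in single nuclei of mouse cortex taken 21 days after a photothrombotic (PT) injury, a focal ischaemic lesion made by lighting a dye in the blood. The 10 genes were fixed by name: Fos, Fosb, Junb, Egr1, Egr3, Arc, Npas4, Nr4a1, Nr4a3 and Homer1, out of 33696 gene features counted. The labels gave 1 library of wild-type mice (control) and 1 library of mice carrying Col1a2(creER) with Cxcl12(flox), named Cxcl12-cKO and written cKO below. In the latter, an inducible Cre driven by Col1a2, a collagen gene of fibroblasts, is meant to delete the chemokine gene Cxcl12 after tamoxifen. Per the study's methods, mice were 7 to 21 weeks old unless stated otherwise, controls of such crosses were in general Cre-negative or flox-heterozygous and given tamoxifen, and the control of these libraries is labelled wild type. Tissue of 1 female and 1 male mouse was pooled for each genotype. Lesion and perilesional cortex (parenchyma) were tagged separately and mixed at 75% lesion to 25% parenchyma nuclei. Both genotypes shared the injury and the time point, and no uninjured tissue was analysed here.

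Immediate early genes are transcribed within minutes of calcium entry into a neuron, without new protein synthesis, and their RNA is short-lived. Fos, Fosb and Junb encode subunits of the AP-1 transcription factor, Egr1 and Egr3 zinc-finger factors, Nr4a1 and Nr4a3 orphan nuclear receptors, and Npas4 a factor that is largely restricted to neurons and answers to depolarisation. Arc and Homer1 act at the synapse: Arc drives removal of AMPA receptors, and Homer1 encodes scaffolds of metabotropic glutamate receptors, with a short activity-induced form and long constitutive forms that the counts per gene do not tell apart. Outside neurons, Fos, Junb, Egr1 and Nr4a1 answer to growth factors, inflammation and tissue dissociation.

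Many of these genes carry a cyclic-AMP response element near their start, at which the factor CREB can bind. RefSeq promoters (GRCm38.p6, an earlier build than that of the files) of 250 bases before to 50 after the start were at hand for 7 of the 10 members, and Egr1, Egr3 and Arc had no promoter shown. The core TGACG, searched on both strands, was found in 7 of the 8 promoters of these members, at least 1 for each member, and in 20.8% of all 32851 promoters of the table. The full element TGACGTCA, which holds the core, was found in none of the 8, against 1.79% of all. The 30 bases around the core that lay nearest before the start are shown for these members because they are the feature the promoters shared, with the core in capitals, read along the gene's strand. The core of Nr4a1 lies on the opposite strand and appears as CGTCA.
Fos: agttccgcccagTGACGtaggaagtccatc
Fosb: tggagttgcgggTGACGcaagcgcgggggc
Junb: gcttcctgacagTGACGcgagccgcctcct
Npas4: gacgtcacgggaTGACGtcggaagtctggg
Nr4a1: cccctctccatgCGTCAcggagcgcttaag
Nr4a3: ctgtggcataaaTGACGtgccgagagagcg
Homer1: gtgagcggagggTGACGtatgtgcggagag
The windows stood at chr12:85473812-85473841 (plus strand) for Fos, chr7:19310088-19310117 (minus) for Fosb, chr8:84978837-84978866 (minus) for Junb, chr19:4990123-4990152 (minus) for Npas4, chr15:101266794-101266823 (plus) for Nr4a1, chr4:48045146-48045175 (plus) for Nr4a3 and chr13:93303705-93303734 (plus) for Homer1. The EGR motif GCGGGGGCG was found in the promoters of Fosb and Nr4a1, against 2.91% of all promoters, and the AP-1 motif TGANTCA in none of the members against 7.81%. A match is a description of letters and says nothing of binding.

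After filtering, 21743 of 23489 barcodes remained. Lesional nuclei numbered 8095 under the label control and 7933 under the label cKO, at medians of 2962 and 2975 unique molecular identifiers (UMIs, counted transcripts). Parenchymal nuclei numbered 2877 and 2838, at 15915 and 16648 UMIs. Cell classes were named from marker genes in clusters made without the members, and are written as class-like. The targeted gene Cxcl12 (ENSMUSG00000061353) was counted in lesional fibroblast-like nuclei at 106 CPM (CPM scales counts to the summed UMIs of the group) from 1514 UMIs under the label control and at 215 (3151 UMIs) under the label cKO. It was thus higher under the label of the knockout, and since no source used here states which part was deleted, the 3′ counts do not check the deletion. Directions below are therefore between libraries as labelled. With 1 library in each genotype there was no replicate library and no test, and all intervals are exact 95% intervals that cover counting error only. A gene was called past the fold when its ratio reached 1.5, among genes with at least 20 UMIs in the groups compared.

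Over all nuclei kept, UMIs of the members ranged from 404 for Fosb (ENSMUSG00000003545) and 953 for Fos (ENSMUSG00000021250) to 59619 for Homer1 (ENSMUSG00000007617). Between them stood Npas4 (ENSMUSG00000045903) with 1456, Arc (ENSMUSG00000022602) with 2021 and Junb (ENSMUSG00000052837) with 2734. Egr3 (ENSMUSG00000033730) had 2967, Egr1 (ENSMUSG00000038418) 4140, Nr4a3 (ENSMUSG00000028341) 4765 and Nr4a1 (ENSMUSG00000023034) 6929. Levels are compared between groups for 1 gene, not between genes, since 3′ counts are not scaled to transcript length.

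In the parenchyma the members were more abundant in excitatory-neuron-like than in inhibitory-neuron-like nuclei. All 10 were higher past the fold under the label control, where 14.6% of all genes were, and 9 of 10 under the label cKO, where 14% of all genes were. Arc showed the widest gap, with 25.4 against 3.41 CPM under the label control and 19.9 against 3.77 under the label cKO, log2 ratios of 2.87 (2.32 to 3.55) and 2.37 (1.88 to 2.96). Egr3, a factor needed for muscle spindles and for late responses of neurons, followed with 2.01 (1.61 to 2.47) and 1.68 (1.32 to 2.10). Homer1 stood at 593 against 212 CPM (1.49) and at 535 against 212 (1.33). The smallest values were those of Npas4 at 0.68 under the label control and of Fos at 0.32 (-0.24 to 0.97) under the label cKO, so that Fos alone stayed within the fold there. Excitatory and inhibitory nuclei of a library share that library. Their median depths in the parenchyma were 17469.5 and 12920 UMIs under the label control and 18410.5 and 14666 under the label cKO. A subcluster with striatal genes, described below, made up 130 of 499 and 149 of 543 inhibitory-like nuclei. Under the label control, Egr3 was at 2.13 CPM outside it and 20.3 inside, Npas4 at 5.23 and 20.8, and Homer1 at 128 and 443. Arc was at 2.52 and 5.87, and Fos at 3.29 and 3.20. Ratios without that subcluster were not computed, so the order of the gaps is that of the whole class.

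To set these levels against free RNA, nuclei were thinned to 758 UMIs. Arc was then detected in 2.10% and 1.54% of parenchymal excitatory-like nuclei under the labels control and cKO, against 0.10% and 0.05% of lesional fibroblast-like nuclei, which should lack it and had medians of 3063 and 3100.5 UMIs before thinning. Before thinning, nuclei of these classes differed in depth by more than 5-fold. Npas4 was detected in 1.14% and 0.91% of the excitatory-like nuclei against 0.12% and 0.20% of the fibroblast-like ones. Egr1 was not neuron-specific in this sense, at 2.69% and 2.55% against 1.75% and 2.08%.

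Within neurons the members did not share 1 leading subtype. Subclusters were compared over the 12 with at least 50 parenchymal nuclei in both libraries. The layer 4-like subcluster, which receives thalamic input in sensory cortex, was highest in both libraries for Egr1 (52.8 CPM under the label control and 40.2 under the label cKO) and Egr3 (45.5 and 32.2). For Arc (42.1 and 26.8) and Nr4a1 (95.1 and 70.0) it was highest under the label control, while under the label cKO the layer 6 corticothalamic-like nuclei were higher for Arc (31.4) and the layer 5 extratelencephalic-like nuclei for Nr4a1 (85.2). The layer 2/3 intratelencephalic-like subcluster was highest for Fosb (4.84 and 5.92) in both libraries, next to layer 4-like nuclei at 4.80 and 4.21. It held Junb at 26.4 and 23.6, but under the label control an unnamed subcluster stood above it at 27.6. Npas4 had no leader that the libraries shared. It was highest in the striatal-like subcluster under the label control, at 20.8 against 7.34 under the label cKO, and in an unnamed subcluster under the label cKO, at 17.5 against 11.9 under the label control. Homer1 was highest in the layer 6 corticothalamic-like subcluster, at 802 and 847, with layer 4-like nuclei next at 834 and 640, an order that turned between the libraries.

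Nr4a3 had an order of its own. It was highest in the layer 6 intratelencephalic-like subcluster under the label control, at 71.2 CPM, but stood there at 41.2 under the label cKO, where the layer 6 corticothalamic-like nuclei were highest at 58.6 (44.1 under the label control). It was low in layer 4-like nuclei, at 27.9 and 24.7, where its relative Nr4a1 was high. The layer 5/6 near-projecting-like nuclei, too few for the order (62 and 48), held it at 105 and 71.7. Fos led in the Vip interneuron-like subcluster, but at 5.05 under the label control and 11.5 under the label cKO, while the layer 4-like nuclei stood at 10.0 and 5.57, so the libraries did not share an order for Fos. By the mean of the libraries, the named subtype with the highest level was the same at the finer clustering for each member. At the low end, Arc was counted at 1.68 in Vip interneuron-like nuclei under the label control and with 0 UMIs under the label cKO, and Egr3 at 1.73 and 3.30 in the Sst interneuron-like subcluster, in which Pvalb markers were up as well.

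**Figure D1:**
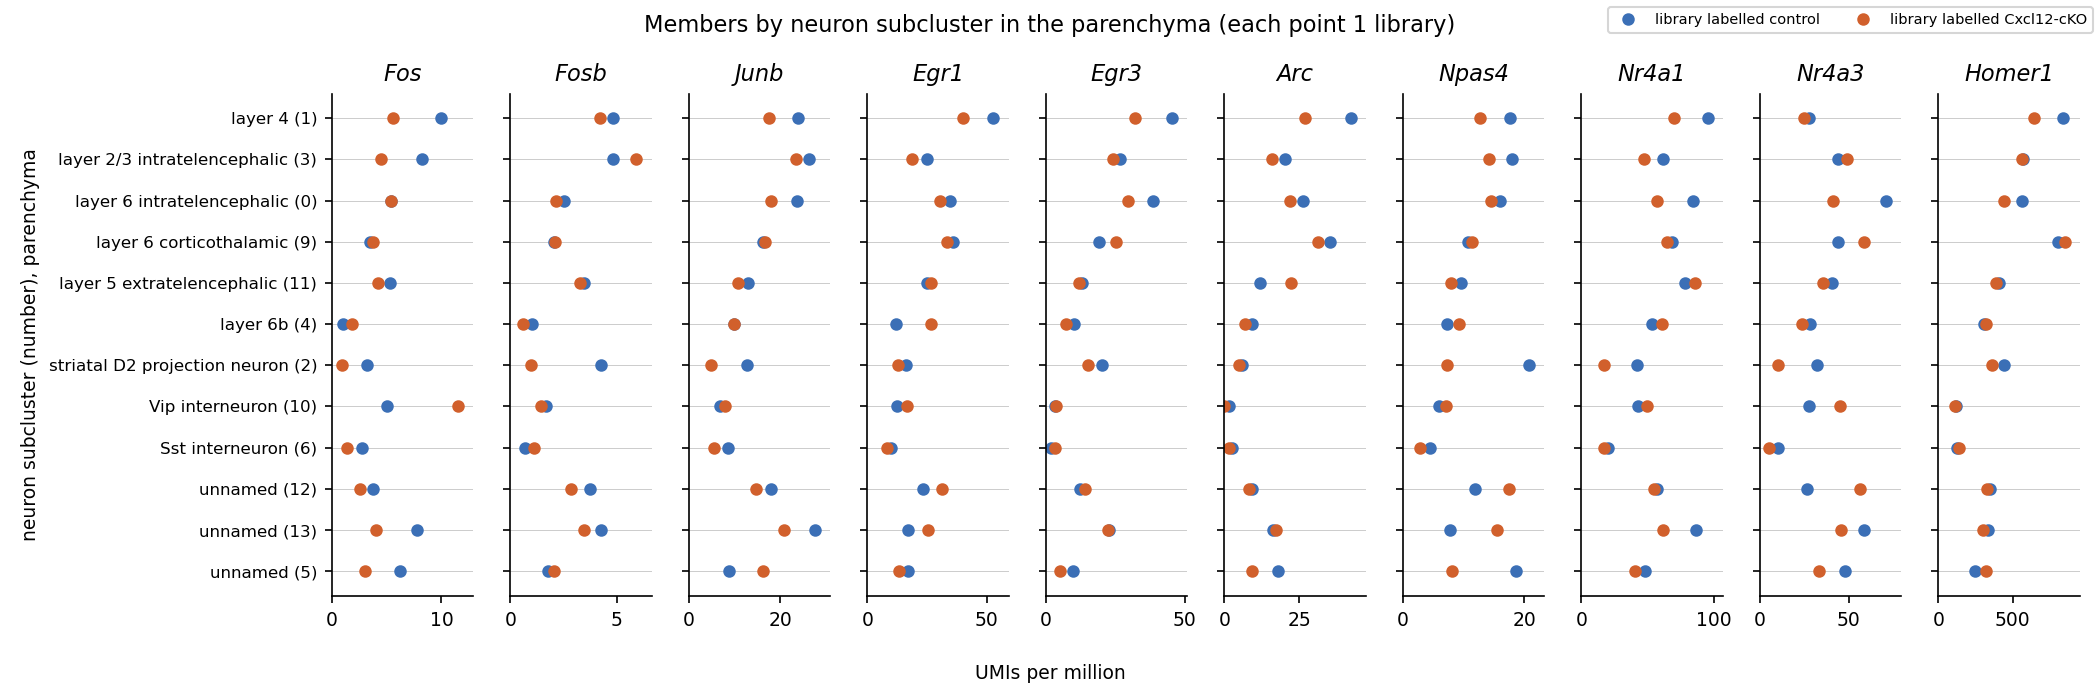
Each panel plots 1 member in the neuron subclusters of the parenchyma (vertical axis), in CPM on a linear axis that starts at 0, with 1 point per library. Arc, Egr1, Egr3 and Nr4a1 are highest in the layer 4-like subcluster under the label control, while Nr4a3 stands at 27.9 there and at 71.2 in the layer 6 intratelencephalic-like subcluster.

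The UMIs of the members were also followed over single nuclei. The 1% of parenchymal excitatory-like nuclei with the most UMIs of a gene (22 nuclei under the label control and 21 under the label cKO) held 47.1% and 47.9% of the Fosb UMIs, 34.6% and 32.1% of those of Fos, and 30.2% and 29.4% of those of Npas4. For Nr4a3 this share was 22.0% and 22.4%. Nr4a1, which belongs to the same receptor family, stood at 7.82% and 8.16%. The nuclei were picked by the gene's own UMIs, so a gene with few UMIs gives a high share whatever its spread. Under the label control, Fosb had 157 UMIs in parenchymal excitatory-like nuclei and Nr4a1 had 2954. No share expected at an equal number of UMIs was computed, so evenness is not compared between genes.

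Members were found in the same nuclei. After thinning to 5000 UMIs, 52.2% (50.1 to 54.4, 1105 of 2116) of parenchymal excitatory-like nuclei under the label control and 47.9% (45.7 to 50.2, 944 of 1969) under the label cKO had a UMI of at least 1 of the 9 members other than Homer1. Among inhibitory-like nuclei the shares were 28.2% of 475 and 25.1% of 522. Nuclei with 3 or more of the 9 made up 10.9% and 9.55% of the excitatory-like and 1.68% and 2.11% of the inhibitory-like ones. Shallower nuclei were left out, 76 and 111 excitatory-like and 24 and 21 inhibitory-like.

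In excitatory-like nuclei, detection of Fos went together with that of other members. Under the label control, 56 thinned excitatory-like nuclei had a Fos UMI, and 35.7% of them had one of Npas4, against 5.10% of the 2060 nuclei without Fos. Nr4a3 was found in 48.2% against 13.9%, Nr4a1 in 67.9% against 27.0%, and Egr1 in 42.9% against 12.4%. Under the label cKO, 41 nuclei had a Fos UMI, with Npas4 in 26.8% of them against 4.82% of the rest and Nr4a1 in 63.4% against 22.6%. Among inhibitory-like nuclei few had a Fos UMI, 13 under the label control and 11 under the label cKO, and the picture was mixed. Egr1 was found in 30.8% and 27.3% of them, against 4.33% and 5.48% of those without Fos, but under the label control Nr4a1 in 0 of 13 (exact interval up to 24.7%) against 11.7%, and Homer1 in 38.5% against 51.7%. Joint detection at a fixed number of UMIs was not compared with pairs of other genes, and nuclei with RNA of both sexes were not left out of it.

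**Figure D2:**
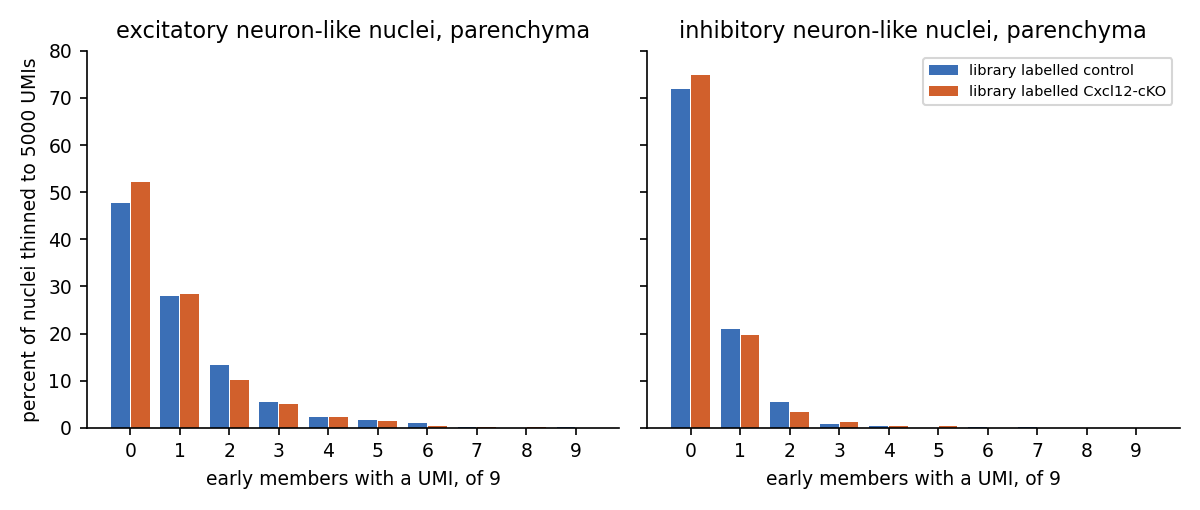
The bars give the percent of parenchymal nuclei, thinned to 5000 UMIs, by the number of the 9 early members (Homer1 left out) with a UMI, for excitatory-like and inhibitory-like nuclei in each library. Nuclei with none make up 47.8% and 52.1% of the excitatory-like and 71.8% and 74.9% of the inhibitory-like nuclei under the labels control and cKO.

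In parenchymal excitatory-like nuclei, which numbered 2192 and 2080, every member was lower under the label cKO than under the label control, mostly by a small amount. The log2 ratio was below 0 for 10 of 10 members, where 51.4% of all 19196 genes were, and its counting interval lay below 0 for 9 of 10, against 9.59% of all genes. Past the fold only Fos was lower, 1 of 10 members against 2.94% of all genes, and no member was higher, against 4.69%. The median over the members was -0.24, and over all genes -0.01. Mitochondrial genes held 0.0365% and 0.0698% of the UMIs of these nuclei under the labels control and cKO, and the part of this was not tested.

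Among the AP-1 genes the values differed, though their counting intervals overlapped. Fos was counted at 6.61 CPM (263 UMIs) under the label control and 4.31 (168 UMIs) under the label cKO, a log2 ratio of -0.61 (-0.90 to -0.33). Junb stood at 21.6 and 17.9, a log2 ratio of -0.27 (-0.42 to -0.13). Fosb, at 3.95 and 3.64, was the 1 member whose interval spanned 0 (-0.11, -0.45 to 0.22). Of the zinc-finger factors, Egr1 was at 32.0 and 28.4 (-0.17, -0.29 to -0.06) and Egr3 at 28.3 and 23.7 (-0.26, -0.39 to -0.13). Their values were thus smaller in size than that of Fos, and no contrast between genes was computed.

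Nr4a1, which also limits inflammatory genes in macrophages, was at 74.2 and 58.8 CPM, a log2 ratio of -0.34 (-0.41 to -0.26), and Nr4a3 at 45.7 and 42.2, at -0.12 (-0.21 to -0.02). Npas4, which builds inhibitory synapses in active neurons, was at 15.1 and 12.99 (-0.22, -0.39 to -0.05). Arc was at 25.4 and 19.9 (-0.36, -0.49 to -0.22), next to Fos in size. Homer1, at 593 and 535, had the narrowest interval (-0.15, -0.18 to -0.12) because of its many UMIs. The intervals speak of these 2 libraries and not of the genotypes.

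The difference was not the same in every subcluster. In layer 4-like nuclei Arc was counted with 316 UMIs in 414 nuclei under the label control and 197 in 388 under the label cKO, a log2 ratio of -0.65 (-0.92 to -0.39), and Fos stood at -0.84 (-1.43 to -0.28). In layer 2/3 intratelencephalic-like nuclei Fos was at -0.87 (-1.44 to -0.33), while Homer1 was at -0.02 (-0.07 to 0.04). Layer 6 corticothalamic-like nuclei showed Nr4a3 higher under the label cKO, with 278 UMIs in 273 nuclei against 213 in 294 (0.41, 0.15 to 0.68), and layer 6 intratelencephalic-like nuclei showed it lower, with 230 in 272 against 450 in 317 (-0.79, -1.03 to -0.56). Over all neuron subclusters, inhibitory-like ones included, Nr4a1 was lower under the label cKO in 12 of 15 with enough UMIs. Its interval lay below 0 in 6 and above 0 in 0. Over all members, 82 of 115 combinations of a member and a subcluster were lower, 33 with the interval below 0, and 8 had it above 0. The share over all genes was not computed for these counts. These subclusters share the 2 libraries and are not replicates.

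**Figure D3:**
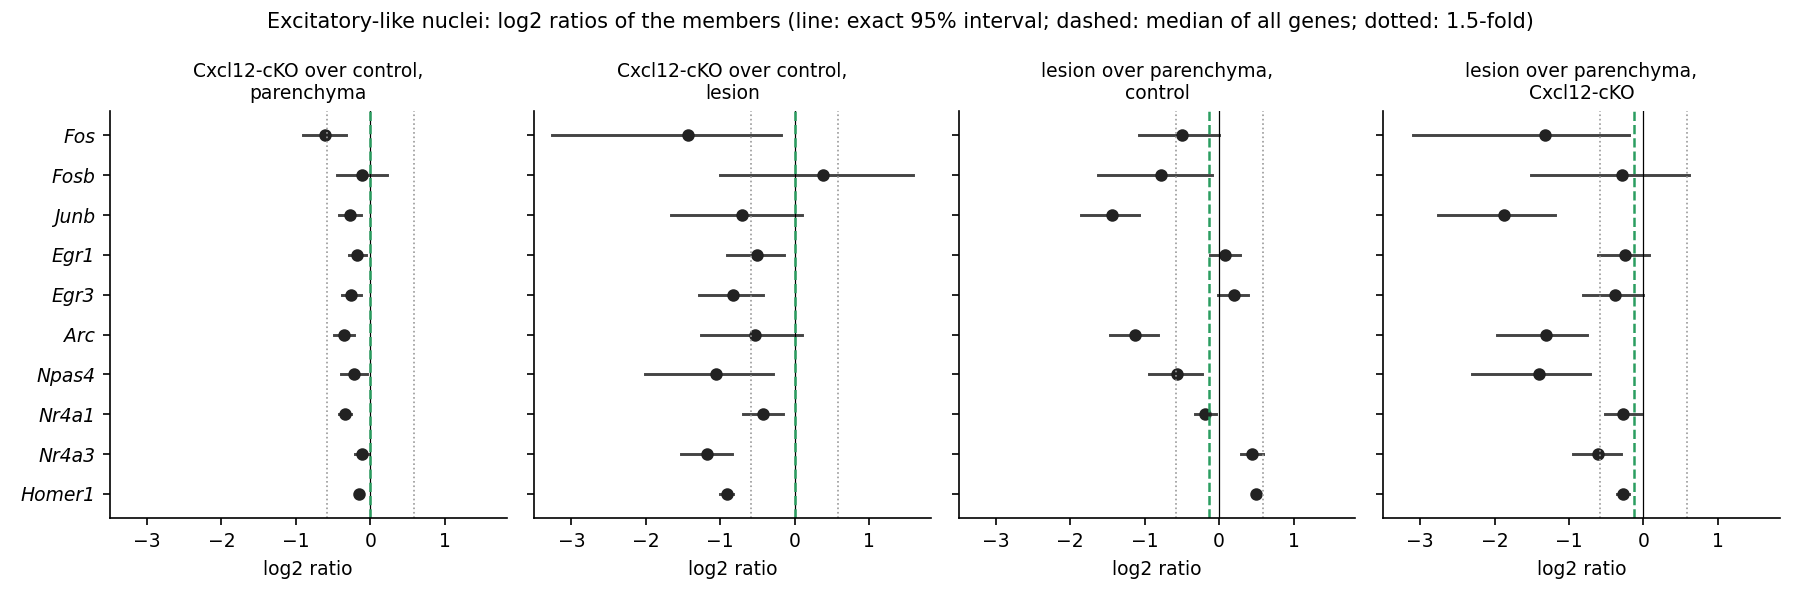
Points are log2 ratios of the members (rows) in excitatory-like nuclei for each comparison (panels), with exact 95% counting intervals as lines, the median of all genes dashed and the 1.5-fold limits dotted. In the parenchyma all 10 members lie below 0, from -0.61 for Fos to -0.11 for Fosb; lesion over parenchyma, Nr4a3 and Homer1 lie above 0 under the label control and below 0 under the label cKO.

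The mice of a library were then told apart by Xist and Y-linked UMIs. Parenchymal excitatory-like nuclei numbered 1057 and 863 for the female and the male labelled control and 947 and 777 for those labelled cKO, at median depths of 17449, 17596, 18769 and 18346 UMIs. Each member was highest in value in the female labelled control. In her nuclei all 10 members were higher than in those of the male of the same library with the counting interval above 0, against 12.6% of all genes, and the median log2 ratio was 0.62. Within the library labelled cKO, 4 of 10 members had the interval above 0, against 10% of all genes, and the median was 0.08.

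Junb was at 27.8 CPM in the female and 14.5 in the male labelled control, and at 19.5 and 16.6 in the female and male labelled cKO. Egr1 was at 41.4, 20.5, 31.5 and 25.8 in the same order, and Fos at 8.70, 4.44, 5.52 and 3.15. For these genes the highest value was that of the female labelled control. Within the library labelled cKO, the female was also above the male for Fos (log2 ratio 0.80, 0.29 to 1.35) and Egr1 (0.29, 0.10 to 0.48). For Junb that interval spanned 0 (0.24, -0.004 to 0.48). Arc was at 29.6, 19.97, 20.4 and 19.6, so that 3 of the 4 mice were nearly level over all these nuclei. In layer 4-like nuclei Arc was at 43.0, 38.4, 26.6 and 26.6, with both mice labelled control above both labelled cKO. This order was not seen in layer 2/3 intratelencephalic-like nuclei, at 21.7, 19.2, 14.5 and 20.6. Nr4a3 was split by sex with the females nearly level in these nuclei, at 55.2 and 53.6 in the females and 35.0 and 31.7 in the males. Npas4 was at 17.9, 11.5, 11.1 and 16.4, and the order of the sexes turned between the libraries.

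Seen within each sex, the libraries differed more between the females than between the males. Between the females 10 of 10 members were lower under the label cKO, 8 with the interval below 0 against 9.67% of all genes, with a median of -0.44. Between the males 6 of 10 were lower, 2 with the interval below 0 (Nr4a1 and Homer1) against 6.62% of all genes, with a median of -0.02, and Egr1 (0.33) and Npas4 (0.50) were higher with intervals above 0. The median of 0.62 between the mice labelled control was thus larger in size than that of -0.24 between the libraries. Genotype, library and mouse cannot be told apart, and the difference between the sexes was not tested.

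Over the inhibitory-like class as a whole, the order of the mice was not that of excitatory-like nuclei. In the parenchyma, female over male, the median of the members with enough UMIs in these nuclei was -0.48 under the label control and -0.80 under the label cKO, against 0.01 for all genes in each. Nr4a3 was at 18.2 CPM in the female and 23.8 in the male labelled control (-0.39, -0.92 to 0.13), and at 12.4 and 27.4 in those labelled cKO (-1.14, -1.69 to -0.59). Nr4a3 was thus lower in the females in value here, with an interval that spanned 0 under the label control, where in excitatory-like nuclei it was higher. Under the label control, the striatal-like subcluster of this class held 46 of the male's 67 Nr4a3 UMIs and 6 of the female's 59. Under the label cKO it held 4 of 67 in the male and 15 of 51 in the female. Outside that subcluster the female labelled control thus held more Nr4a3 UMIs than the male, not scaled to depth. The turn of Nr4a3 under the label control lay in the striatal-like nuclei and is not shown for the others. Ratios of the mice without that subcluster were not computed.

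Next, 8 excitatory subclusters were given the same weight in both mice, which moved the values named here little. Female over male under the label control was then 0.95 for Junb, 0.98 for Egr1, 0.88 for Fos and 0.04 for Homer1. Without weighting these were 0.94, 1.01, 0.96 and 0.09. Under the label cKO Nr4a3 was at 0.72 and Npas4 at -0.64, against 0.75 and -0.56 without weighting. Single subclusters differed more. In layer 4-like nuclei, Fos was at 14.9 CPM in the female and 3.01 in the male labelled control, and Nr4a3 at 37.4 and 9.41. In layer 2/3 intratelencephalic-like nuclei of the same mice Fos was at 7.61 and 8.46 (-0.15, -0.88 to 0.58) and Nr4a3 at 46.3 and 38.3 (0.27, -0.03 to 0.58), while Egr1, at 33.3 and 13.7, was higher in the female there as well. Over 63 combinations of a member and a subcluster with enough UMIs, 45 were higher in the female under the label control and 32 under the label cKO. The interval lay above 0 for 28 and below 0 for 4 under the label control, and for 9 and 7 under the label cKO. These combinations share the same mice, and the share over all genes was not computed for them. Nuclei with at least 3 of the 9 early members after thinning made up 14.6% (12.5 to 16.9) of the female's nuclei under the label control, 7.68% (5.98 to 9.69) of the male's, 10.9% and 8.48% under the label cKO.

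**Figure D4:**
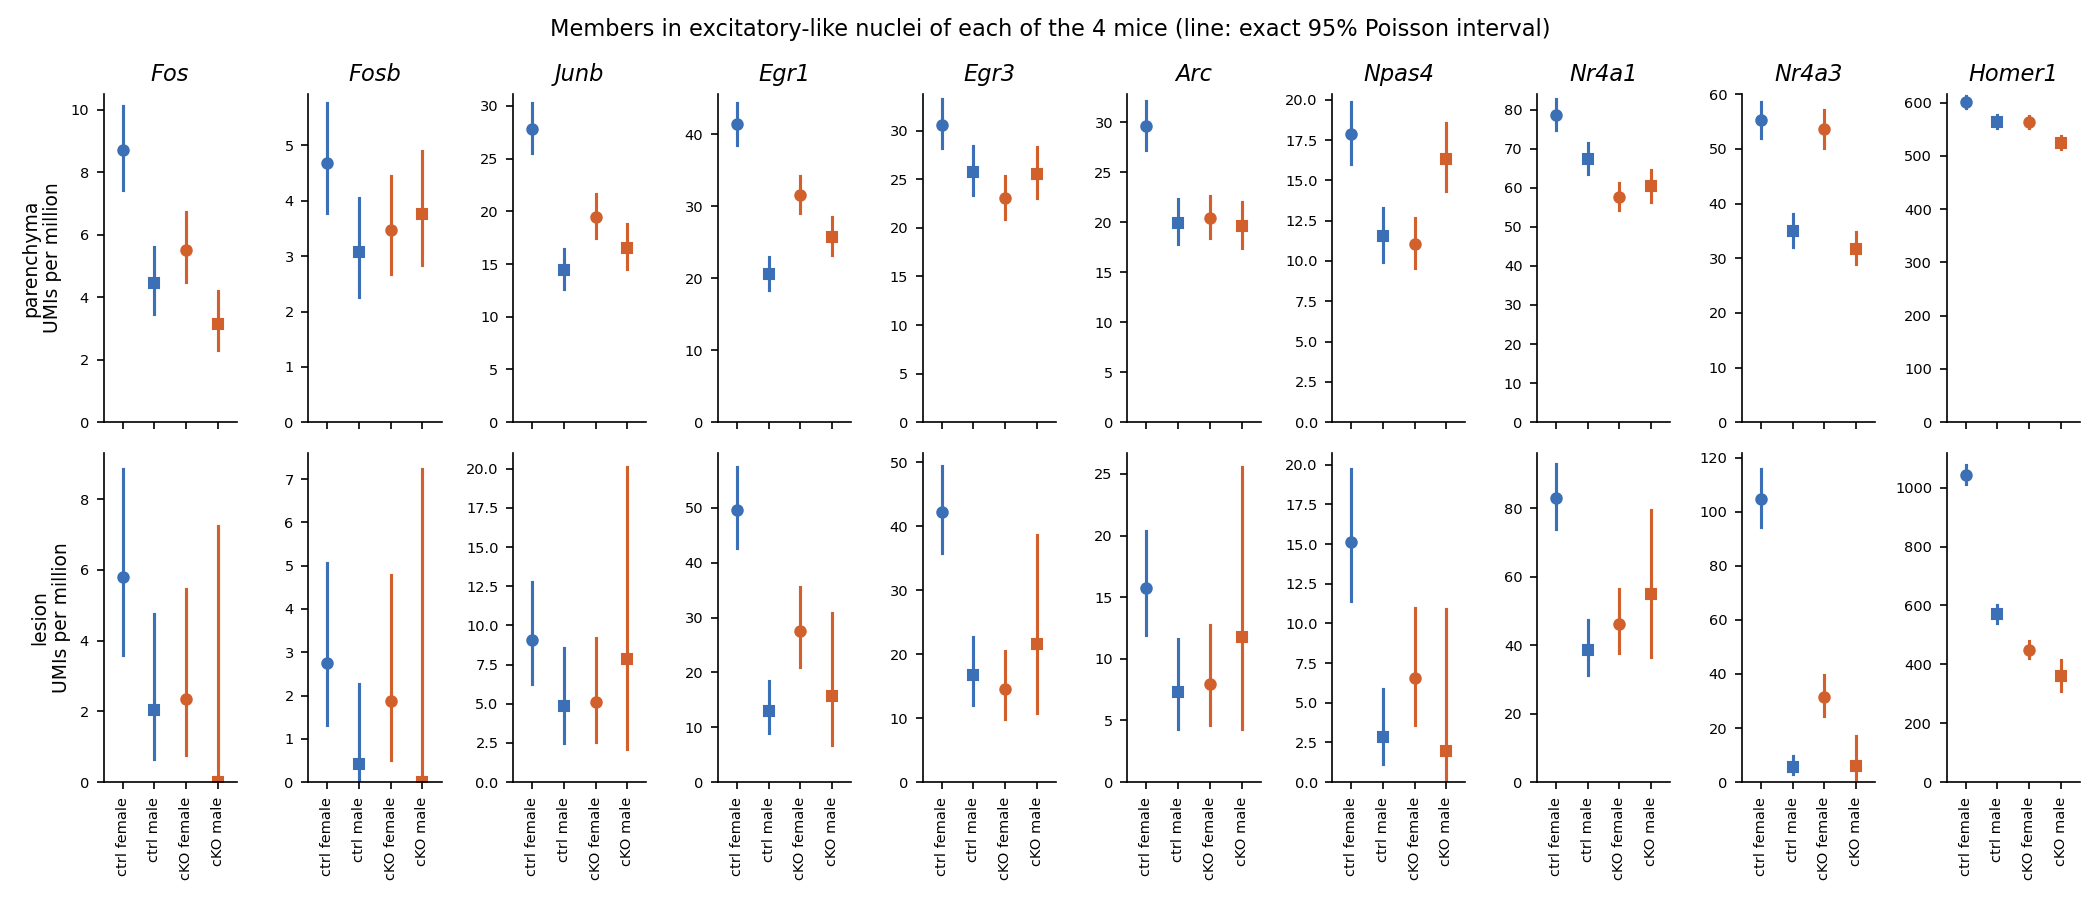
Each panel gives 1 member in excitatory-like nuclei of the 4 mice (female and male of each library) in CPM, for parenchyma and lesion, with exact 95% Poisson intervals as lines. In the parenchyma the female labelled control is highest for Junb (27.8), Egr1 (41.4) and Arc (29.6), and in the lesion for Nr4a3 (105).

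In parenchymal inhibitory-like nuclei, 499 under the label control and 543 under the label cKO, Npas4 and Fosb were lower past the fold under the label cKO, 2 of 10 members against 4.19% of all genes. Npas4 was counted with 66 UMIs, 9.38 CPM, against 46 UMIs, 5.60 CPM, a log2 ratio of -0.74 (-1.32 to -0.18). Fosb rested on 15 and 11 UMIs and its interval spanned 0 (-0.65, -1.94 to 0.55). The other members had intervals that spanned 0, from -0.25 for Junb to 0.14 for Arc, with Homer1 at 0.00 (-0.10 to 0.11).

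The lower Npas4 of this class lay in its subcluster with striatal genes. That subcluster carried markers of striatal D2 and D1 projection neurons alike and held 130 and 149 parenchymal nuclei, although the dissection was of cortex. There Npas4 was counted with 39 UMIs under the label control and 15 under the label cKO (-1.47, -2.47 to -0.61), Nr4a3 with 60 and 21 (-1.62, -2.43 to -0.90) and Nr4a1 with 78 and 35 (-1.27, -1.90 to -0.69). In this striatal-like subcluster 1 mouse was far above the rest: Nr4a3 had 46 UMIs in 65 nuclei of the male labelled control, against 6 in 48 of the female, 15 in 86 of the female labelled cKO and 4 in 44 of the male labelled cKO. Npas4 had 25, 9, 10 and 3 UMIs in the same mice, and Nr4a1 46, 17, 25 and 10. In the remaining 369 and 394 inhibitory-like nuclei, Npas4 was counted with 27 UMIs under the label control and 31 under the label cKO (-0.06, -0.85 to 0.74). No member was lower past the fold there and the median was 0.28, with Homer1 at 0.36 (0.22 to 0.51) and Egr3, on 11 and 29 UMIs, at 1.10 (0.10 to 2.29). Leaving this subcluster out was chosen after the values had been seen.

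Excitatory-like nuclei were also found in the lesion, 504 under the label control and 236 under the label cKO, and the members did not move together between regions. Under the label control, Fosb, Junb and Arc were lower in the lesion past the fold, 3 of 10 members against 26.7% of all genes, and none was higher, against 6.55%. The counting interval lay below 0 for 6 members, against 29.1% of all genes, and above 0 for 2, against 16.3%. Under the label cKO, Fos, Junb, Arc, Npas4 and Nr4a3 were lower past the fold, 5 of 10 against 26.2%, none was higher, against 9.33%, and 8 had an interval below 0, against 21%. The share of members lower past the fold thus lay close to the background under the label control. The medians of the members were -0.34 and -0.50, and those of all genes -0.14 and -0.12.

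Junb and Arc were lower in the lesion in both libraries. Junb was at 21.6 CPM in parenchyma and 7.91 in lesion under the label control, and at 17.9 and 4.74 under the label cKO, log2 ratios of -1.44 (-1.85 to -1.07) and -1.87 (-2.76 to -1.19). Arc was at 25.4 and 11.6, and at 19.9 and 7.90, log2 ratios of -1.12 (-1.46 to -0.82) and -1.30 (-1.97 to -0.76). Both genes were lower in the lesion in each of the 4 mice, from -1.86 to -0.91 for Junb and from -1.41 to -0.63 for Arc. In the male labelled cKO, with 39 lesional nuclei, this rested on 4 Junb UMIs in 2 nuclei and 6 Arc UMIs in 3 nuclei. Arc was also lower in each of the 4 excitatory subclusters with enough UMIs in either library.

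Nr4a3 and Homer1 took opposite directions in the libraries. Homer1 was at 593 CPM in parenchyma and 835 in lesion under the label control, but at 535 and 443 under the label cKO, log2 ratios of 0.49 (0.45 to 0.53) and -0.27 (-0.35 to -0.20). Nr4a3 was at 45.7 and 62.3 under the label control and at 42.2 and 27.5 under the label cKO, log2 ratios of 0.45 (0.30 to 0.59) and -0.61 (-0.95 to -0.31). Egr1, at 0.09 and -0.25, had intervals that spanned 0, and Nr4a1 was at -0.18 and -0.27. Npas4 was at -0.57 (-0.94 to -0.23) and -1.41 (-2.30 to -0.72). Fos rested on 35 and 5 lesional UMIs, at -0.50 and -1.32.

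For Nr4a3 the higher level in the lesion was that of 1 mouse. Lesional excitatory-like nuclei numbered 245 for the female and 157 for the male labelled control, and 153 and 39 for those labelled cKO. In them Nr4a3 was counted with 380 UMIs in the female labelled control, against 14, 67 and 3 in the other mice, or 105, 5.70, 31.3 and 5.88 CPM. Lesion over parenchyma, its log2 ratio was 0.92 in the female labelled control and -2.57, -0.76 and -2.21 in the others. Its UMIs were spread over 114 of the 245 nuclei, and the 12 nuclei with the most held 38.7% of them. Homer1 was at 1044, 570, 449 and 359 CPM, with lesion over parenchyma at 0.80, 0.02, -0.33 and -0.54, so the higher lesional level under the label control was that of the female as well.

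By subcluster, Homer1 in lesional layer 6 corticothalamic-like nuclei was at 0.89 over parenchyma under the label control (80 lesional nuclei) and at -0.69 under the label cKO (55). In layer 2/3 intratelencephalic-like nuclei it was at 0.46 and -0.60, and in layer 4-like nuclei at 0.23 and -0.44. Layer 6 intratelencephalic-like nuclei did not share this turn, with Homer1 at 0.27 (0.16 to 0.37) and 0.08 (-0.09 to 0.25) and Nr4a3 at 0.49 (0.20 to 0.76) and 0.39 (-0.16 to 0.88). Nr4a3 was at 0.71 and -0.94 in layer 6 corticothalamic-like nuclei. It was counted with 99 UMIs in 121 lesional layer 2/3-like nuclei under the label control, and with 0 in 42 under the label cKO, where parenchymal nuclei held 509 in 500. Under the label control its ratio in layer 2/3-like nuclei was 0.11 (-0.23 to 0.42). A count of 0 allows up to 3 UMIs, a one-sided 95% limit.

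Some other properties of the excitatory-like nuclei differed between the regions as well. The summed level of the 7 fibroblast markers in excitatory-like nuclei was 150.5 and 90.02 CPM in the lesion under the labels control and cKO, against 31.5 and 30.8 in the parenchyma, with none of the 7 at 0. The 8 myeloid markers stood at 53.0 and 59.4 against 55.9 and 59.9, with 1 at 0 in the lesion labelled cKO. An unnamed subcluster with RNA of both sexes in 47.5% of its 122 nuclei held 80 and 30 lesional nuclei. Lesional nuclei were shallower, at medians of 13917.5 and 12831 UMIs. Mitochondrial genes held 0.148% and 0.167% of their UMIs, against 0.0365% and 0.0698% in the parenchyma. Without that subcluster, Nr4a3 was at 0.53 and -0.62, Homer1 at 0.53 and -0.26, Junb at -1.73 and -2.31 and Arc at -1.23 and -1.35. The part of the fibroblast RNA, of depth and of the mitochondrial share was not tested.

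Compared between the libraries within the lesion, 6 of 10 members (Fos, Junb, Egr3, Npas4, Nr4a3 and Homer1) were lower past the fold under the label cKO in excitatory-like nuclei, against 6.72% of all genes, and 7 had the interval below 0, against 8.16%. Homer1 was at 835 and 443 CPM, a log2 ratio of -0.91 (-0.9998 to -0.83), and Egr3 at 32.3 and 18.003, at -0.83 (-1.29 to -0.42). Fosb, on 17 and 9 UMIs, was at 0.38 (-1.01 to 1.59). The direction was that of the females. Between them all 9 members with enough UMIs were lower under the label cKO, 7 with the interval below 0 against 8.42% of all genes, with a median of -1.17. Between the males 1 of 5 members with enough UMIs was lower, Homer1 at -0.67, the 1 interval below 0 against 4.7% of all genes, and the median was 0.42. Egr1 (0.33), Egr3 (0.42), Arc (0.76) and Nr4a1 (0.52) had intervals that spanned 0, with 39 nuclei of the male labelled cKO. This comparison shares its nuclei with those between regions above, and the female labelled control again held the highest level, with Egr1 at 49.6, 13.03, 27.6 and 15.7 and Npas4 at 15.2, 2.85, 6.54 and 1.96 in the 4 mice.

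Genes that act with the members were taken as fixed lists. In parenchymal excitatory-like nuclei, cKO over control, 1 of 14 other AP-1, EGR and NR4A factors with enough UMIs was lower past the fold and 1 higher (median -0.08), and of 20 early feedback and effector genes none was past it (median -0.10). Of 15 late neuronal response genes 1 was lower (median -0.13), with Nrn1, a trophic factor of synapses, at -0.20, Pcsk1 at -0.13, Sorcs3 at 0.04 and Mfap3l at 0.05. The 20 upstream regulators, such as the calcium channel gene Cacna1c (0.01), the kinase genes Camk2a (-0.07) and Camk4 (-0.02) and the factor gene Mef2c (0.15), had none past the fold and a median of 0.00. The same held for the 15 partners of Homer and Arc (median -0.04), with the glutamate receptor genes Grm5 at 0.05, Gria1 at -0.04 and Gria2 at -0.04, and Itpr1 at 0.00. Heat shock and dissociation genes, which answer to tissue handling, also had none past the fold among 10 (median 0.01). Hsp90aa1 was at 0.10, Hsph1 and Hsp90ab1 at 0.01 and Dnaja1 at -0.04. Of all genes, 9.59% had the counting interval below 0 and 9.08% above it. Below 0 it lay for 7 of the 15 partners, 7 of the 15 late genes and 5 of the 20 early feedback genes. It lay above 0 for 2, 2 and 1 of these. For upstream regulators it lay below 0 for 3 and above 0 for 5, for the other factors for 1 and 1, and for heat shock genes for 0 and 1.

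Between lesion and parenchyma the same lists differed more. Of 13 other AP-1, EGR and NR4A factors, 7 were lower and 2 higher past the fold under the label control, and 6 lower and none higher under the label cKO. Nr4a2, the remaining member of the NR4A family, was at -0.62 and -2.54, Jund, an AP-1 gene, at -0.67 and -0.83, Fosl2 at 0.66 and -0.17 and Nab1, a corepressor of EGR factors, at -0.03 and -0.29. Of 19 early feedback and effector genes 4 and 8 were lower and 0 and 1 higher, with the antiproliferative gene Btg2 at -0.25 and -2.60, Tiparp at 0.19 and -1.99, the clock gene Per1 at 0.06 and -0.39, and Plk2 at -0.43 and -0.44. Of the late response genes 4 of 15 and 7 of 14 were lower and 2 and 0 higher, with Nrn1 at -0.79 and -0.83. Upstream regulators (1 and 2 of 20 lower, none higher) and partners of Homer and Arc (1 of 15 lower in each, 0 and 2 higher) had medians near 0. Of 9 heat shock and dissociation genes 1 and 3 were lower and none higher. These counts stand beside the same background of all genes as those of the members.

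Outside neurons the members were read in the lesion, where most other cells were. Myeloid-like nuclei, which numbered 1792 and 2299, held the highest Junb level of the lesion under the label control, at 59.6 CPM, and T-cell-like nuclei, at 45.9 from 11 UMIs, had an interval that overlapped it. Fos and Junb were lower past the fold under the label cKO in myeloid-like nuclei, 2 of the 8 members with enough UMIs against 6.02% of all genes. Junb was counted with 286 and 233 UMIs, 59.6 and 33.5 CPM (-0.83, -1.09 to -0.57), and Fos with 110 and 61, 22.9 and 8.78 CPM (-1.38, -1.86 to -0.92). By mouse, in the order used above, Fos was at 23.2, 19.5, 7.10 and 12.4 CPM, with both mice labelled control above both labelled cKO. Junb was at 72.9, 37.6, 36.4 and 25.3, so that the male labelled control and the female labelled cKO were level. The 7 fibroblast markers were also lower in these nuclei under the label cKO, at 624 against 1053 summed CPM, none of them at 0, and their part in the result was not tested.

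Npas4 was present in myeloid-like nuclei, at 36 and 42 UMIs or 7.50 and 6.05 CPM, close to its level in lesional excitatory-like nuclei (10.2 and 4.74). Arc had 6 and 8 UMIs there. Npas4 thus made up 85.7% (71.5 to 94.6) and 84.0% (70.9 to 92.8) of the UMIs of the pair in myeloid-like nuclei, against 46.7% (38.9 to 54.6) and 37.5% (22.7 to 54.2) in lesional excitatory-like nuclei. The 7 excitatory markers summed to 175 and 174 CPM in myeloid-like nuclei and to 3096 and 3118 in the excitatory-like ones.

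In astrocyte-like nuclei, 528 and 519, Fos was higher past the fold under the label cKO, 1 of the 7 members with enough UMIs against 6.17% of all genes, with 40 and 69 UMIs, 17.7 and 27.7 CPM (0.64, 0.06 to 1.24). Egr3 and Nr4a1 were lower past it, 2 of 7 against 9.57%. Egr3 had 27 UMIs under the label control and 5 under the label cKO (-2.47, -4.31 to -1.18), with 13 and 8 in the female and male labelled control and 4 and 0 in those labelled cKO, where a count of 0 allows up to 3. Nr4a1 had 27 and 19, with an interval that spanned 0. Summed fibroblast markers in these nuclei were at 870 and 343 CPM, with none of the 7 at 0, and their part was not tested.

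Fibroblast-like nuclei, the class in which the Cre is driven and the largest of the lesion with 4162 and 4082 nuclei, held Egr1 at 27.9 and 29.4 CPM (398 and 431 UMIs), a log2 ratio of 0.08 (-0.12 to 0.28). In these nuclei 0 of 10 members were higher past the fold, against 5.45% of all genes, and every interval spanned 0. Egr3 was at 11.8 and 11.6 (-0.01, -0.33 to 0.30), Homer1 at 59.0 and 58.0 (-0.02, -0.16 to 0.12) and Fos at 3.29 and 4.36 (0.40, -0.16 to 0.98).

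**Figure D5:**
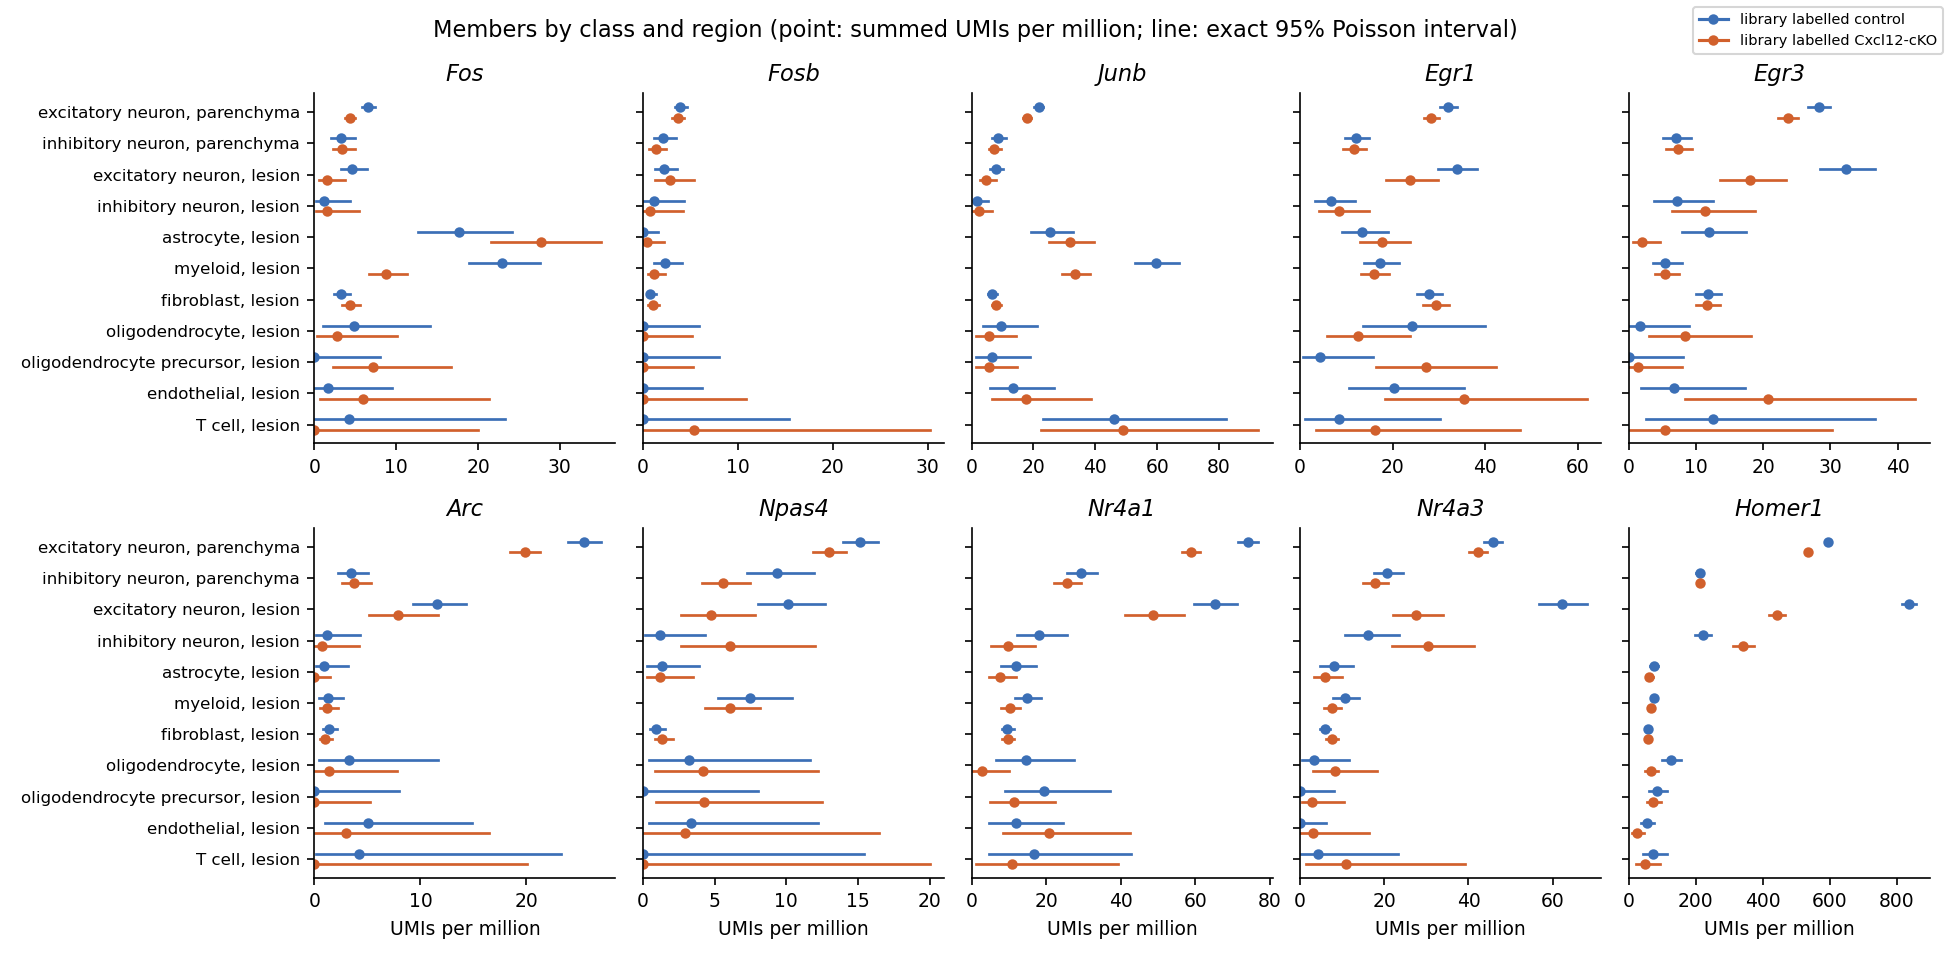
Each panel gives 1 member by cell class and region in CPM on a linear axis that starts at 0, with 1 point per library and exact 95% Poisson intervals as lines. Arc and Homer1 are highest in excitatory-like nuclei, while Junb is highest in lesional myeloid-like nuclei under the label control, at 59.6.

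As a description of pattern, each member was correlated with 16390 genes over 50 groups of nuclei (class or neuron subcluster by region and library), which share libraries and differ in depth. The genes most like Homer1 were Vmn2r87, Cnksr2 and Nrg1, at Pearson's r of 0.94, 0.94 and 0.93 on log2(CPM + 1). Arc was most like Sv2b, a synaptic vesicle gene, Car7 and Rprml (0.86, 0.86 and 0.85), and Nr4a1 most like Arpp21, Fam131a and Khdrbs2 (0.88, 0.87 and 0.87). Egr1 was the 1 member whose closest gene was another member, Egr3, at 0.67, and Egr3 was closest to Exph5, Itpka and Kcnv1 (0.79, 0.78 and 0.77). Junb was closest to Stap1, the microglial receptor gene P2ry12 and H2-T24 (0.72, 0.71 and 0.70). Npas4 was closest to Neurl1a (0.85), Nr4a3 to D130043K22Rik (0.86), Fosb to Pkd1l3 (0.84) and Fos to Elmo2 (0.69).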

How the data were processed

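Single-nucleus RNA of lesion and parenchyma was sequenced as 1 library per genotype (Chromium 3′ chemistry). The authors ran Cell Ranger 9.0.0 on GRCm39, per the labels, and deposited 4 filtered matrices of UMI counts, whole numbers per gene and nucleus with no normalization. No source used here says whether intronic reads were counted. The members and gene lists were chosen with earlier results of these data known, and several naming thresholds were set after clusters had been seen.

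Barcodes in the outer 2.5% of UMIs or genes, or the highest 2.5% of mitochondrial share, were removed. Nuclei were clustered in scanpy 1.11.5 (3000 variable genes, 30 components, resolution 0.25) without the members, and named from markers (at least 3 up). The gene lists were left out as well, except the upstream regulators and the partners of Homer and Arc. Neurons were clustered again with 2000 variable genes, which gave 17 subclusters. No doublet caller entered the main values. Libraries shared 22, 15, 9 and 1 barcodes across their region pairs, and regions of a library none. UMIs of both sexes occurred in 9.75% to 14.3% of nuclei.

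UMIs were summed per class, region and library, with 0.5 added for log2 ratios. Intervals of ratios were exact conditional binomial, of levels exact Poisson and of shares exact Clopper-Pearson. All 10 members were named, and for each list the 4 genes with the most neuronal UMIs; likeness named the closest genes by Pearson's r. The scripts were tested on simulated counts. Alternatives numbered 15 planned and 3 chosen after seeing the data. Sums and intervals used scipy 1.17.1 and numpy 2.4.6 under Python 3.11.15, tables pandas 2.3.3 and clustering leidenalg 0.10.2.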

Additional observations from a re-analysis of the deposited data

Results flagged for a closer look

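In excitatory-like nuclei, lesion over parenchyma, Nr4a3 had a log2 ratio of 0.45 under the label control and -0.61 under the label cKO, and Homer1 had 0.49 and -0.27. These are set apart because the libraries took opposite directions under the same contrast. Each genotype had 1 library, so the difference was not tested.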

How the results depend on the processing

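No paired analysis was possible because the result came from no test and the mice of a genotype shared 1 library; values within each sex are given as a description. In parenchymal excitatory-like nuclei the count of members lower past the fold under the label cKO was 1. It was 0 with nuclei weighted alike, with nuclei of both sexes' UMIs left out, with nuclei thinned to 5000 UMIs and between the males, and 2 between the females. The median of -0.24 became -0.44 between the females and -0.018 between the males, where Junb (0.19), Egr1 (0.33) and Npas4 (0.50) reversed, and Fosb, whose interval had spanned 0, was at 0.29. In inhibitory-like nuclei the count of 2 became 0 with classes from each nucleus's own markers, with the 1% of nuclei richest in the members left out and between the males. It became 1 with nuclei weighted alike, both-sex nuclei or high Scrublet scores left out, thinning, at least 50 UMIs and between the females. It became 0 without the striatal-like subcluster. The median of -0.13 became 0.22 between the males and 0.28 without that subcluster. For lesion over parenchyma under the label control, the count of 3 became 5 with no barcode filter, with both-sex nuclei left out and after thinning, and 9 in the male. The median of -0.34 became -0.074 in the female, where Nr4a1 reversed (0.079), and -1.20 in the male, where Nr4a3 reversed (-2.57) and Egr1 (-0.64) and Egr3 (-0.61), whose intervals had spanned 0, had intervals below 0. Unthinned, nuclei with an early member made up 79.9% and 76.1% in place of 52.2% and 47.9%. The cause was not tested. Of the single members' values, 62 moved beyond their interval, 5 reversed from an interval that had excluded 0, and 534 did neither. Fosb and Fos had the fewest UMIs of the members, with 9 and 5 in lesional excitatory-like nuclei under the label cKO.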

Other observations

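In the lesion labelled cKO, the striatal-like subcluster held 47 nuclei, against 11 under the label control. Nr4a3 was counted there with 34 UMIs, against 21 in the 149 parenchymal nuclei of that library, a log2 ratio of 2.71 (1.89 to 3.58), opposite in sign to the value of -0.61 in excitatory-like nuclei of the same library. Of these 34 UMIs, 29 came from 41 nuclei of the female, and 1 nucleus of the male held 0, so the value rests mainly on 1 mouse. Homer1 was at 0.95 (0.76 to 1.13) in these striatal-like nuclei, and Egr1, Nr4a1 and Npas4 had intervals that spanned 0.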
